A study of Mus musculus with 9 samples.

Results

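The genes examined encode the CD40 receptor (Cd40), its ligand (Cd40lg), the adaptors Traf1, Traf2, Traf3, Traf5, and Traf6, the kinase NIK (Map3k14), and the ubiquitin ligase cIAP2 (Birc3). They were taken by name from the deposited table, which held all 9 among its 24341 genes. The livers of 9 wild-type C57BL/6 mice were compared 48 hours after treatment, 3 given FGK45, an antibody that activates CD40 (anti-CD40 mice 2, 5, and 9), and 6 given PBS (control mice 3, 4, 7, 8, 11, and 12). The study's methods describe sex-matched young adult mice for its experiments in general, and the dose of this experiment is not given in the sources used here. The methods state that anti-CD40 mice without a fall of blood B cells were excluded, so the treated group may be selected for a response. RNA came from whole liver tissue and was sequenced from the 3′ end of transcripts, and values are FPKM, fragments scaled to transcript length and to the mapped reads of the library.

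CD40 is a receptor of the TNF receptor family carried by B cells, dendritic cells, and macrophages, and it is normally engaged by CD40 ligand on activated T cells and platelets. It has no enzyme activity, and its cytoplasmic tail signals through TRAF adaptors. In resting cells TRAF3, TRAF2, and the cIAP ligases hold NIK at a low level by marking it for degradation. Ligation of CD40 degrades TRAF3, NIK accumulates, and NIK with IKKα drives processing of p100 (Nfkb2) to p52, the alternative NF-κB pathway, while TRAF2 and TRAF6 feed the canonical pathway and the MAP kinases. TRAF1, cIAP2, and CD40 itself are among the products of genes that NF-κB is known to drive.

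The liver label was checked with hepatocyte genes, whose summed FPKM over 10 genes was 13300 to 25200 in control mice and 4460 to 5640 in anti-CD40 mice. The table gives no read totals, but low values come in steps of 1 read, from which the relative depth of each mouse was 0.870 to 1.13 times the geometric mean. On this scale all 9 genes came out as whole reads in every mouse, within 0.1 read. Cd40 and Traf6 were nearest to that limit, at 0.08 and 0.081, so their reads are less certain. Of 27 other pathway genes named below, 18 came out as whole reads. Reads given below are the smallest whole numbers that fit, and the true numbers could be a multiple of them. Anti-CD40 mouse 5 stood apart in 7 genes of the exocrine pancreas, with a summed FPKM of 519 against 0.727 to 3.40 in the other 8 mice, and the 5 genes that were higher, Traf2, and 3 gene ratios are also given without it.

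In the anti-CD40 livers the receptor, 2 of its adaptors, the kinase, and the ligase were higher, whereas Traf2, Traf5, and Traf6 did not pass the test. Of the 8 genes tested (mean FPKM of at least 0.1), 5 passed limma at an adjusted p under 0.05, all of them higher: Cd40, Traf1, Traf3, Map3k14, and Birc3. In the same fit 23.5% of all 13807 genes tested were higher. None of the 8 was lower at an adjusted p under 0.05, against 21.7% lower among all genes tested. At an unadjusted p under 0.05, for which no share over all genes was taken, none was lower either (0 genes). The same 5 had groups that did not overlap, as did 22.7% of all genes tested in this direction. The median log2 fold change was 1.43 for the 8 genes and 0.0056 for all genes tested. All log2 fold changes are on the log2(FPKM + 0.1) scale, which understates the change of low genes.

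**Figure D1:**
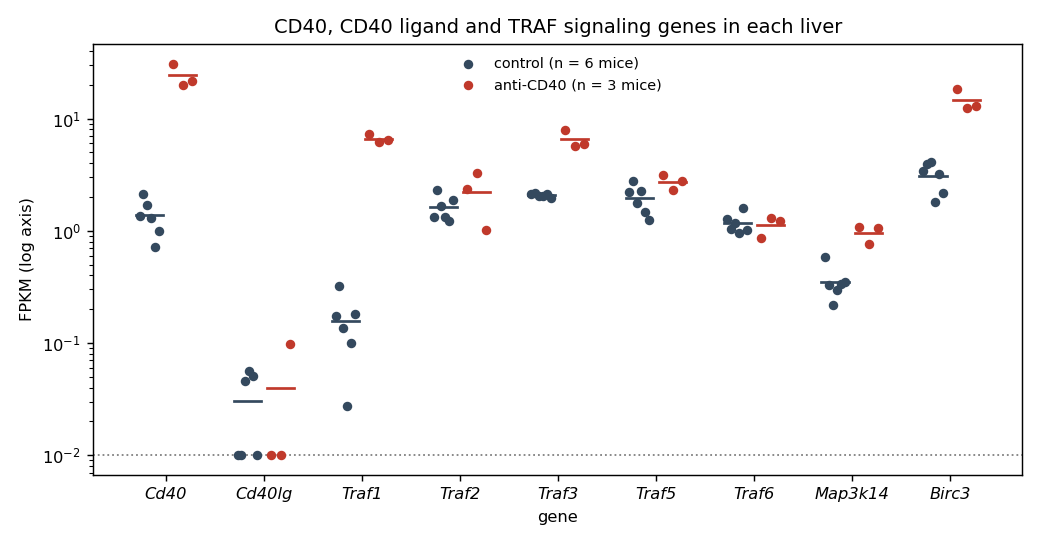
FPKM on a log axis for the 9 genes, with 1 point per mouse, a line at each group's mean, and a dotted line at the table's floor of 0.01. The anti-CD40 mice lie above all control mice for Cd40, Traf1, Traf3, Map3k14, and Birc3, and the groups overlap for Cd40lg, Traf2, Traf5, and Traf6.

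Cd40, the receptor, lies on the plus strand of mm10 at chr2:165055636-165071654. Anti-CD40 mice 2, 5, and 9 had an FPKM of 30.9, 20.1, and 21.8, and the lowest, median, and highest control values were 0.723, 1.33, and 2.13. The lowest treated liver was therefore far above the highest control liver. The means were 24.3 ± 5.78 (SD, n = 3) and 1.37 ± 0.498 (SD, n = 6), 17.8 times as high after anti-CD40. The log2 fold change was 4.10 (standard error 0.29, 95% confidence interval 3.46 to 4.74, limma adjusted p = 2.90e-06). The exact permutation p was 0.0238, the smallest that the 84 splits of the mice allow. Cd40 was read 952, 584, and 589 times in the treated mice and 19 to 61 times in each control mouse, so counting error is small beside the difference. GENCODE M21 extends its 3′ end 1294 bases beyond the deposited position, and reads in that stretch would lie outside it.

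Cd40lg, the ligand, lies on the plus strand at chrX:57212143-57224042. Anti-CD40 mice 2 and 5 were listed at the table's floor of 0.01, and mouse 9 at 0.0986. In control mice 7, 8, and 11 it was 0.0462, 0.0562, and 0.0507, and mice 3, 4, and 12 were at the floor. These values stand for 2 reads in the treated group, both in mouse 9, and 3 reads in the control group, so a change in the ligand was not detectable at this depth (exact permutation p = 1.0). Its mean FPKM was too low, under 0.1, for the fit over all genes. Markers of T cells, which can carry the ligand, were higher in 9 of 10 genes tested, all but Cd4, which was not called. Their summed FPKM was 3.58 to 6.30 in control mice and 15.9 to 18.2 in anti-CD40 mice. Markers of platelets, the other carrier, were higher in 1 of 6 tested, and their summed FPKM overlapped between the groups (11.2 to 42.8 in control mice and 22.5 to 28.8 in anti-CD40 mice).

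Traf1, an adaptor that lacks the RING domain of the other TRAF proteins and acts together with TRAF2, showed the largest log2 fold change of the 8 genes tested, except with a pseudocount of 1, where Cd40 did (3.42 against 2.72). It lies on the minus strand at chr2:34943258-34961772. Levels of 7.25, 6.17, and 6.44 FPKM were measured in treated mice 2, 5, and 9, and the control values ran from 0.0277 through a median of 0.155 to 0.320. The treated mice were close to each other, whereas the control mice differed widely among themselves. The means of 6.62 ± 0.564 (SD, n = 3) and 0.157 ± 0.0979 (SD, n = 6) stand 42.3-fold apart, and the log2 fold change was 4.80 (standard error 0.31, 95% confidence interval 4.10 to 5.50, adjusted p = 2.08e-06 from limma). The control values rest on few reads, 1 to 14 in each mouse and 39 in all, against 265 to 341 in each treated mouse. The control level is close to the pseudocount, and adding 0.01 in place of 0.1 gave a log2 fold change of 5.58. RefSeq and GENCODE M21 both place the 3′ end of Traf1 another 1508 bases downstream of the deposited position.

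Traf3, the adaptor that recruits NIK for degradation, lies on the plus strand at chr12:111159850-111267155, a position it shares in the table with 4930595D18Rik, which was at the floor in all 9 mice. Treated mice 2, 5, and 9 had 7.94, 5.73, and 5.95 FPKM, and control mice had 1.94, 2.08, and 2.19 at the lowest, median, and highest. Control mice were tightly grouped, with an SD of 0.0856 around a mean of 2.08 (n = 6). The treated mean was 6.54 ± 1.22 (SD, n = 3), 3.15 times as high. The log2 fold change was 1.59 (standard error 0.13, 95% confidence interval 1.30 to 1.88, adjusted p = 7.19e-06 from limma), on 783 to 1192 reads in each treated mouse and 237 to 306 in each control mouse.

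Map3k14 encodes NIK, the kinase that starts the alternative pathway, and lies on the minus strand at chr11:103219764-103267401. The treated values were 1.07, 0.761, and 1.05 FPKM in mice 2, 5, and 9, against 0.219, 0.331, and 0.580 at the lowest, median, and highest control. The groups did not overlap, with treated mouse 5 lowest of its group and control mouse 3 highest of the controls. The means were 0.960 ± 0.172 (SD, n = 3) and 0.351 ± 0.122 (SD, n = 6), which is 2.73 times as high after anti-CD40. On the log2 scale the difference was 1.26 (standard error 0.24, 95% confidence interval 0.73 to 1.78, adjusted p = 0.00157 from limma). Map3k14 was read 63 to 94 times in the treated mice and 18 to 44 times in the control mice. GENCODE M21 places another gene of the same strand, 1700028N14Rik, over part of this position, so reads of the pair could be shared.

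Birc3 encodes cIAP2, a ubiquitin ligase that binds TRAF2, and lies on the minus strand at chr9:7848701-7873170. FPKM values of 18.4, 12.3, and 12.9 in treated mice 2, 5, and 9 compare with 1.80, 3.29, and 4.09 at the lowest, median, and highest control. The means of 14.6 ± 3.36 (SD, n = 3) and 3.09 ± 0.920 (SD, n = 6) give a log2 fold change of 2.23 (standard error 0.26, 95% confidence interval 1.65 to 2.82, adjusted p = 7.75e-05 from limma). Birc3 was read 654 to 1064 times in the treated mice and 80 to 221 times in the control mice. RefSeq extends its 3′ end by 1233 bases. The exact permutation p was 0.0238 for each of Traf1, Traf3, Map3k14, and Birc3, as for Cd40. Without mouse 5, the liver with the pancreas transcripts, the log2 fold changes were 4.22 for Cd40, 4.85 for Traf1, 1.68 for Traf3, 1.40 for Map3k14, and 2.34 for Birc3, each still with an adjusted p under 0.05.

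Traf2, the adaptor that brings the cIAP ligases to the receptor, lies on the minus strand at chr2:25517982-25546940. Treated values were 2.37, 3.24, and 1.02 FPKM in mice 2, 5, and 9, and the controls had 1.23, 1.5, and 2.32 at the lowest, median, and highest control. Treated mouse 5 was above and treated mouse 9 below every control mouse. The log2 fold change was 0.32 (standard error 0.32, 95% confidence interval -0.40 to 1.03, adjusted p = 0.453 from limma), an interval wide enough to hold both a fall and a clear rise. The value turns on single mice: it was -0.021 (adjusted p = 0.966) without mouse 5 and 0.77 (adjusted p = 0.0416) without mouse 9. Reads were 56 to 192 in the treated mice and 64 to 136 in the control mice.

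Traf5, a close relative of TRAF3 that supports NF-κB signaling in B cells, lies on the minus strand at chr1:191997203-192092599. Mir3473c, which shares this position in the table, was at the floor in all 9 mice. GENCODE M21 also places Gstp-ps of the same strand and Gm26879 of the other strand over part of it, so reads could be shared. Traf5 had an FPKM of 3.13, 2.32, and 2.78 in anti-CD40 mice 2, 5, and 9, against 1.25, 1.97, and 2.75 at the lowest, median, and highest control. All treated mice were above 5 of the 6 control mice. Anti-CD40 exceeded control by 0.51 on the log2 scale (standard error 0.23, 95% confidence interval -0.0079 to 1.03, limma adjusted p = 0.1), which does not pass the threshold. By exact permutation alone p was 0.0476. Without control mouse 4, the highest control, the log2 fold change was 0.62 (adjusted p = 0.0344).

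Traf6, the adaptor that activates TAK1 and that Toll-like and IL-1 receptors share, lies on the plus strand at chr2:101678420-101701668. In treated mice 2, 5, and 9 it had 0.858, 1.29, and 1.21 FPKM, against 0.952, 1.1, and 1.59 at the lowest, median, and highest control. The log2 fold change was -0.061 (standard error 0.19, 95% confidence interval -0.49 to 0.37, adjusted p = 0.818 from limma), on 110 to 156 reads in the treated and 94 to 174 in the control mice. The groups overlapped throughout, and the sign depended on the mice included and on the scaling.

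Within the treated group most of the genes, but not Traf2 and Traf6, ranked mouse 2 highest and mouse 5 lowest. Among the 8 genes other than Cd40lg, mouse 2 was the highest treated liver in 6 and mouse 5 the lowest in 6. Mouse 5 was the highest treated liver for Traf2 and Traf6. No matching count over all genes was taken. Among the control mice, mouse 4 was highest in 5 of the 8 genes. Mouse 4 also had the highest summed markers of B cells and dendritic cells among the control mice, at 9.06 and 6.92 FPKM. The same held for markers of neutrophils (156), T cells (6.30), platelets (42.8), stellate cells (323), and cholangiocytes (17.6). Its hepatocyte markers were the lowest of the control mice, at 13300. For monocyte and macrophage markers mouse 4 was at 124 and mouse 7 highest at 150. For Kupffer cell markers mouse 4 was at 403 and mouse 8 highest at 456. For liver endothelium mouse 4 was at 102 and mouse 12 highest at 122. The part of any of these cells in the values of mouse 4 was not tested.

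For pairs of genes that act together, the ratio within each mouse was compared, since transcript length cancels between groups. Treated mice 2, 5, and 9 had a log2 ratio of Traf1 to Traf2 of 1.58, 0.91, and 2.55, whereas all controls lay from -3.48 to -2.39. It rose by 4.48 on the log2 scale (exact permutation p = 0.0238, 0.0317 adjusted over the 4 ratios). The ratio of Traf3 to Traf2 also rose, by 1.28, from 0.37 ± 0.34 (SD, n = 6) to 1.65 ± 0.82 (SD, n = 3; exact permutation p = 0.0238, adjusted 0.0317), although treated mouse 5 at 0.80 was only slightly above the highest control at 0.73. Without mouse 5 the differences were 1.7 for Traf3 to Traf2 and 4.87 for Traf1 to Traf2, values for which no exact test can reach 0.05. The ratio of Birc3 to Birc2, the gene of cIAP1, averaged -0.97 ± 0.29 (SD, n = 3) in treated and -1.57 ± 0.30 (SD, n = 6) in control livers. That difference of 0.60 had an exact permutation p of 0.0476 (adjusted 0.0476), and the groups overlapped. The exact permutation p was 0.0714 with a pseudocount of 1 and without control mouse 3, 4, 8, 11, or 12, and without mouse 5 the difference was 0.76. Birc2 and Birc3 are neighboring paralogs, and how reads that fit both were counted is not given in the sources used here.

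**Figure D2:**
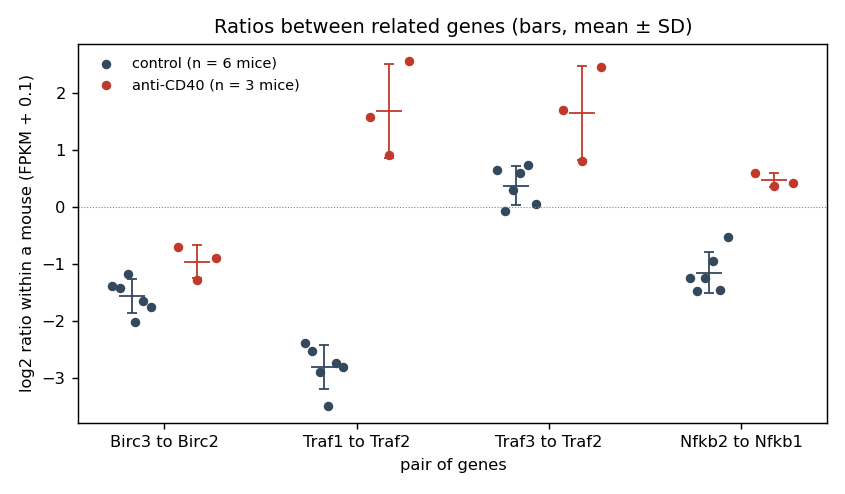
Log2 ratio of FPKM + 0.1 between 2 genes within each mouse, with 1 point per mouse and bars for the mean ± SD of the 6 control and 3 anti-CD40 mice. The groups are separate for Traf1 to Traf2, Traf3 to Traf2, and Nfkb2 to Nfkb1, and overlap for Birc3 to Birc2.

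The promoters of the 4 genes that rose and had an entry are shown because these genes moved together. RefSeq sequences (GRCm38.p6, 250 bases before to 50 bases after the start, 5′ to 3′ on the gene's strand) matched 7 of the 9 genes, all but Cd40 and Cd40lg. The 10-base κB consensus, the site NF-κB dimers are known to bind, was searched on both strands and is in capitals. It was in 1 of the 7 promoters, that of Traf3, and in 8.46% of all 32851 promoters of this length. Traf1 (chr2:34961723-34962022, minus strand) and Birc3 (chr9:7873121-7873420, minus strand) held no match in this window, nor did Map3k14 (chr11:103267352-103267651, minus strand). Traf3 (chr12:111166120-111166419, plus strand) held 1 that begins 10 bases before the RefSeq start, which lies inside the deposited span of the gene, and Nfkb2 (chr19:46304487-46304786, plus strand), shown for comparison, held 3, of which 2 overlap.
Traf1: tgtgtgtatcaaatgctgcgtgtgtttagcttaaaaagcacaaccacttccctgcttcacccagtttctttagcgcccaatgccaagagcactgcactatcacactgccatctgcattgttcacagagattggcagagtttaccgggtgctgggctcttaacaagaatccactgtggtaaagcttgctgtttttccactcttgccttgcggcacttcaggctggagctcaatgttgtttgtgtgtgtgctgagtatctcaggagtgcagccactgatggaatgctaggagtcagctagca
Birc3: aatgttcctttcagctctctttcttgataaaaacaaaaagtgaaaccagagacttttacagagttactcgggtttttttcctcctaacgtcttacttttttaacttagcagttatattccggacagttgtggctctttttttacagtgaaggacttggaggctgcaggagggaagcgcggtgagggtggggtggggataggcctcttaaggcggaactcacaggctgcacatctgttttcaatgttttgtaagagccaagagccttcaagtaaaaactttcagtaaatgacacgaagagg
Traf3: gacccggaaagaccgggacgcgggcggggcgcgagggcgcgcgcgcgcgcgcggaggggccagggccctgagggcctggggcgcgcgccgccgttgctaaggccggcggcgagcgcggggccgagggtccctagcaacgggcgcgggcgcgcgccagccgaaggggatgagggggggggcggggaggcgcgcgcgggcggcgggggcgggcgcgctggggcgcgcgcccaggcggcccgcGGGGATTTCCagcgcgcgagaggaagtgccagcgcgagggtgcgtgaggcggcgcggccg
Map3k14: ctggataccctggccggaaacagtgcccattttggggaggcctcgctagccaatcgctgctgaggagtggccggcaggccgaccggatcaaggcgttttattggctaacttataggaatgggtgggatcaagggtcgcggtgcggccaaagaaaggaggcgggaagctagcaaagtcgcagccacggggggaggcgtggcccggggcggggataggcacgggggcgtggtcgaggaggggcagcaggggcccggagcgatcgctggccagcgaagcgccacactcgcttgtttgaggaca
Nfkb2: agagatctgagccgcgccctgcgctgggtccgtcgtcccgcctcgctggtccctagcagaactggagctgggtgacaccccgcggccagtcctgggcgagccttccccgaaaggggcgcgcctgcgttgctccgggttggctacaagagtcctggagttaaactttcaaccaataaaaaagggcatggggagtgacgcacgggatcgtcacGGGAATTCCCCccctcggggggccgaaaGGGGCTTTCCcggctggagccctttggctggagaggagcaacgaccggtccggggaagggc

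Beyond these 9 genes, 6 lists of other CD40 pathway genes held 77 genes, of which 70 were tested, 38 were higher and 9 lower. Beside these and the list counts below, 23.5% of all genes tested were higher and 21.7% lower. In the alternative NF-κB arm, 3 of 7 genes were higher and 1 lower, with a median log2 fold change of 0.15. The 3 were Relb (log2 fold change 3.28, standard error 0.22), Nfkb2 (2.55, standard error 0.16), and Birc2 (1.63, standard error 0.14). Their limma adjusted p were 2.38e-06, 1.74e-06, and 1.15e-05 in this order. Relb, the partner of p52, had an FPKM of 34.7, 21.3, and 21.7 in anti-CD40 mice 2, 5, and 9, with mouse 2 highest as for Cd40. Chuk, which encodes the IKKα that NIK activates, fell from 21.3 ± 4.95 (SD, n = 6) to 11.3 ± 0.722 (SD, n = 3), or -0.87 on the log2 scale (standard error 0.20, limma adjusted p = 0.00462). With each mouse rescaled to the same total without Saa1, Saa2, and Saa3, which moves the median of all genes to 0.35, that of Chuk was -0.51 (adjusted p = 0.0762). The ratio of Nfkb2 to Nfkb1, the precursors of p52 and p50, rose by 1.62 on the log2 scale, from -1.15 ± 0.37 (SD, n = 6) to 0.46 ± 0.12 (SD, n = 3; exact permutation p = 0.0238, adjusted over the 4 ratios 0.0317).

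In the canonical arm 7 of 17 genes were higher and 2 lower (median log2 fold change 0.36). The inhibitor Tnfaip3 (A20) had a log2 fold change of 3.10, against 0.94 for Nfkb1, 1.0 for Rel, and 0.60 for Nfkbia, all with a limma adjusted p under 0.05. Rel did not pass with quantile normalization (0.61, adjusted p = 0.0521). Nfkbia lost its call when mouse 2, 5, or 9 was left out (adjusted p = 0.119, 0.0993, and 0.0857), without control mouse 3, 7, or 8, with no filter, and with eBayes without trend. Rela (0.36, adjusted p = 0.102) did not pass, but it did with quantile normalization (0.60, adjusted p = 0.00703), the rescaling (0.72, adjusted p = 0.00171), array weights (0.37, adjusted p = 0.0279), and without control mouse 12 (0.45, adjusted p = 0.0153). Ikbkb did not pass (-0.077, adjusted p = 0.570), was above 0 with quantile normalization (0.02), and was called higher with the rescaling (0.29, adjusted p = 0.0253). Map3k7, which encodes TAK1, fell by 0.77 (adjusted p = 0.00340). Of 11 MAP kinase and JAK3 genes, 4 were higher and 4 lower, and Jak3, a kinase that associates with CD40, rose by 1.40 (adjusted p = 0.00103 from limma). Of 10 other TRAF and TRAF partner genes, 5 were higher and 1 lower. Tifa, which binds TRAF6, had a log2 fold change of 2.64 and Tank, which binds TRAF proteins, 1.17, whereas Traf3ip2 (0.46, adjusted p = 0.258) did not pass. Traf4 was lower (-0.65, adjusted p = 0.0391 from limma), a call lost with the rescaling (-0.29, adjusted p = 0.270), with no filter, on leaving out mouse 2, 5, or 9 (adjusted p = 0.0828, 0.104, and 0.109), and without control mouse 3, 8, 11, or 12.

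Among 17 other TNF receptors that use TRAF proteins, 12 were tested, 8 were higher and 1 lower. Tnfrsf13c, the BAFF receptor of B cells that also signals through TRAF3 and NIK, rose by 4.32 and Tnfrsf9 (4-1BB) by 3.85 on the log2 scale, with adjusted p of 2.82e-06 and 2.29e-06 from limma. Tnfrsf1b (1.30) and Tnfrsf11a (1.04) were also higher, and Ltbr was not called (-0.49, adjusted p = 0.0529), except with array weights (-0.52, adjusted p = 0.00734) and without control mouse 4 (-0.60, adjusted p = 0.00380), where it was lower. Of 15 genes that CD40 ligation is known to induce in antigen-presenting cells, 13 were tested and 11 were higher, with 0 lower also at an unadjusted p under 0.05 (limma, median log2 fold change 2.42). Il12b rose by 3.82, Cd83 by 3.06, Icam1 by 3.04, and Cd80 by 2.32. Among the named genes, Tnfrsf9 and Cd80 reached the mean FPKM of 0.1 for testing only through the anti-CD40 mice (control means 0.045 and 0.0539). Such genes could hardly be tested without being higher, so the counts for their lists lean that way. Bcl2a1b rose by 4.40, but it has near-identical copies with which reads could be shared. Cd86 passed narrowly at 0.76 (limma adjusted p = 0.0476), its groups overlapped, and it did not pass on leaving out mouse 2, 5, or 9 (adjusted p = 0.191, 0.0896, and 0.0681). The Cd86 call was also lost with quantile normalization (0.55, adjusted p = 0.106), with no filter, with eBayes without trend, and without control mouse 3, 8, 11, or 12.

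**Figure D3:**
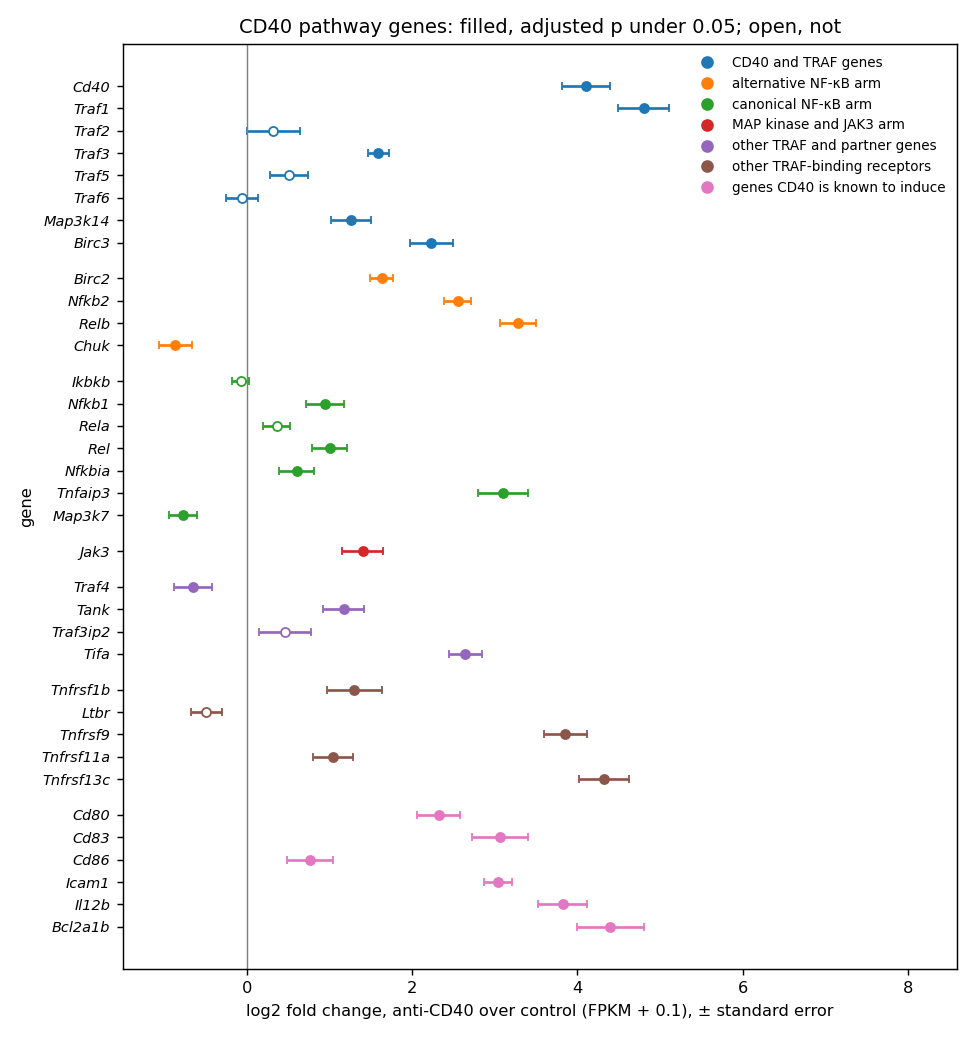
Log2 fold change of anti-CD40 over control with its standard error from limma for the 8 genes tested and the named genes of the 6 pathway lists, filled where the adjusted p was under 0.05. Cd40, Traf1, Tnfrsf13c, and Bcl2a1b lie beyond 4, and Traf2, Traf5, and Traf6 are open points at 0.32, 0.51, and -0.061.

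The genes whose pattern over the 9 mice was most like that of Cd40 were taken by the smallest root mean square distance of log2 values, each centered on its own mean, among 10154 other genes whose mean FPKM reached 1. They were Glipr2 (distance 0.214 on the log2 scale), Mmp9 (0.249), Sema4d (0.255), Tnfrsf13c (0.260), and AI839979 (0.274). Mmp9 encodes a gelatinase of neutrophils and macrophages, and Sema4d a semaphorin of lymphocytes. This choice fixes their fold changes near that of Cd40. Mmp9, Sema4d, Tnfrsf13c, and AI839979 reached the mean FPKM of 1 only through the anti-CD40 mice (control means 0.762, 0.137, 0.126, and 0.211). Glipr2 had a control mean of 1.12.

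Of the cells that carry CD40, B cells and dendritic cells had mostly higher markers. Markers of macrophages, Kupffer cells among them, went in both directions. B cell markers were higher in 9 of 9 genes tested, with a summed FPKM over 10 genes of 2.20 to 9.06 in control mice and 34.5 to 50.5 in anti-CD40 mice. Dendritic cell markers were higher in 8 of 9 tested (4.27 to 6.92 against 30.0 to 40.3), with a median log2 fold change of 1.15. One of them, Ccl22, is also on the list of genes that CD40 ligation is known to induce. Monocyte and macrophage markers were higher in 7 of 10, with 1, Adgre1, lower (75.3 to 150 against 654 to 858). Neutrophil markers were higher in 9 of 9 tested (18.4 to 156 against 4220 to 5210). Kupffer cell markers went the other way, lower in 6 of 6 (285 to 456 against 39.0 to 50.7), and hepatocyte markers were lower in 7 of 10, with 1 higher. Markers of liver endothelium were higher in 2 and lower in 3 of 8 (98.2 to 122 against 88.0 to 96.3), those of stellate cells higher in 3 and lower in 2 of 8 (214 to 323 against 220 to 251), and those of cholangiocytes higher in 2 of 5 tested (8.88 to 17.6 against 68.6 to 98.5). For comparison, 23.5% of all genes tested were higher and 21.7% lower. No marker in these lists was at the floor in every mouse. The part of these cells in the higher Cd40, Traf1, Traf3, Map3k14, and Birc3 was not tested, and in bulk tissue more cells of a type cannot be told apart from more RNA per cell.

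**Figure D4:**
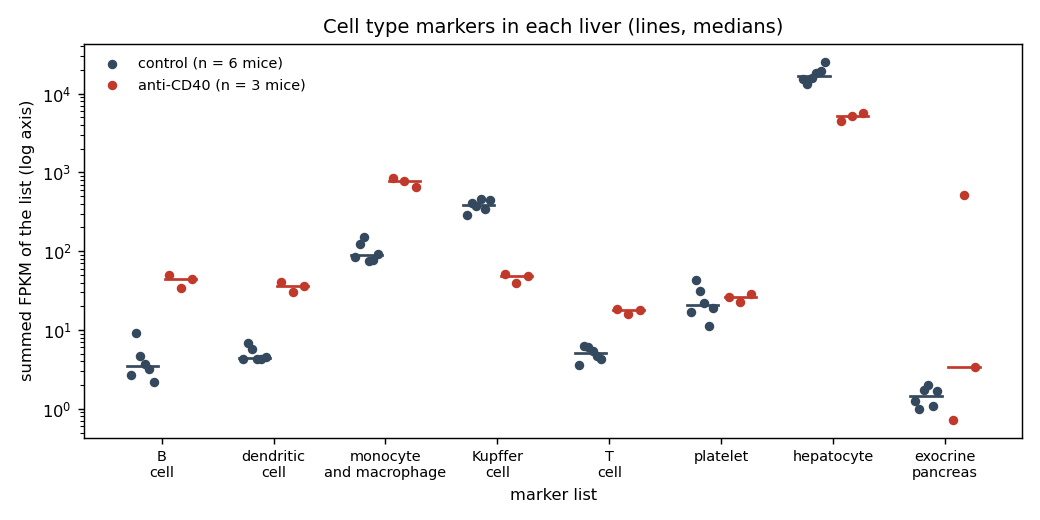
Summed FPKM of 8 cell type marker lists on a log axis, with 1 point per mouse and a line at each group's median. B cell, dendritic cell, monocyte and macrophage, and T cell sums are higher in all 3 anti-CD40 mice, Kupffer cell and hepatocyte sums are lower, and 1 anti-CD40 mouse (mouse 5) stands apart in exocrine pancreas genes.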

How the data were processed

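The authors isolated RNA from the livers of 9 mice, made QuantSeq 3′ libraries, aligned reads with STAR to mm10, and deposited FPKM values from Cufflinks and CuffDiff, with a floor of 0.01. The annotation and the filter applied to the table are not given in the sources used here. Of 24341 genes, 15 with a failed estimate were left out. No scaling was added. The 13807 genes whose mean FPKM reached 0.1 were tested across genes as log2(FPKM + 0.1) with limma 3.58.1 in R 4.3.3 (eBayes with a trend, group as the only factor, 2-sided, Benjamini-Hochberg adjustment at 0.05). A count test was not used, since the values are FPKM. Single values and ratios were tested with 2-sided exact permutation tests over all 84 splits of the mice (smallest p 0.0238). Intervals are at 95%. Whole reads were recovered from the value of 1 read in each mouse, estimated from low genes. The scripts were tested on simulated data.

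The 9 genes, the gene lists, and the marker lists were chosen with earlier results of these data known. All 9 genes are named, and pathway genes were named from a fixed list whatever their values. Each mouse is 1 sample, and the labels give no batch. FPKM divides by transcript length, which is not suited to 3′ reads, so levels of different genes were not compared. Alternatives were other pseudocounts, filters, scalings, variance settings, and leaving out each mouse. Python 3.11.15 with numpy 2.4.6, pandas 2.3.3, scipy 1.17.1, and matplotlib 3.10.9 were used for all else.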

Additional observations from a re-analysis of the deposited data

Results flagged for a closer look

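In 40 sets of control values examined (the 9 genes, the named pathway genes, and the 4 ratios), the gap between the most extreme control mouse and the next, as a share of the control range, was above Dixon's 95% critical value in 3, and about 2 of 40 would be by chance. Map3k14 had a share of 0.639, with control mouse 3 highest at an FPKM of 0.580 and the other controls between 0.219 and 0.349. Tnfrsf1b had a share of 0.635, with control mouse 12 highest at 8.06 against 2.21 to 4.34 in the other controls. Tnfrsf11a had a share of 0.694, with control mouse 4 highest at 0.281 against 0.0973 to 0.154.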

How the results depend on the processing

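Cd40, Traf1, Traf3, Map3k14, and Birc3 stayed higher with an adjusted p under 0.05 from limma in all alternatives run for them, with log2 fold changes of 3.42 to 4.46, 2.72 to 5.58, 1.28 to 1.95, 0.54 to 1.57, and 1.94 to 2.59. Map3k14 had no value at a mean FPKM of at least 1. The value for all genes called fell from 6230 to 3142 when the fold change had to reach 2. Array weights (0.53, adjusted p = 0.0328) and rescaling without Saa1, Saa2, and Saa3 (0.86, adjusted p = 0.0136) gave Traf5 a call, and it ran from 0.40 to 0.62 with each mouse left out. That rescaling turned Traf6 to 0.28 (adjusted p = 0.288), and leaving out single mice moved Traf6 between -0.17 and 0.10 and Traf2 between -0.021 and 0.77. For Cd40lg, the difference of mean log2(FPKM + 0.1) ran from -0.23 to 0.20 with each mouse left out, and its sign rests on the 2 reads of mouse 9. The ratio of Birc3 to Birc2 lost the call with a pseudocount of 1 (0.40) and quantile normalization (0.44), and ran from 0.48 to 0.76 with each mouse left out, with the call lost (exact permutation p = 0.0714) without control mouse 3, 4, 8, 11, or 12. The canonical arm had 12 genes higher with the rescaling without Saa1, Saa2, and Saa3 and 4 with a fold change of at least 2. The MAP kinase and JAK3 arm had 2 genes higher, in place of 4, with no filter, a mean FPKM of at least 1, eBayes without trend, or a fold change of at least 2, and 2 to 3 with each mouse left out. At a mean FPKM of at least 1, 3 other TRAF and partner genes and 4 other receptors were higher, since fewer genes were tested. For the other changes the cause was not tested. Of the called genes 3240 were higher and 2990 lower, and with the rescaling 5638 were higher (77.4%) and 1648 lower, at a median log2 fold change over all genes of 0.35. Exact tests of the ratios were not run without an anti-CD40 mouse, where they cannot reach 0.05. No paired analysis was possible because each mouse has its own number and none is shared between the groups. Depth limits Cd40lg (5 reads in all) and Traf1 in control mice (39 reads).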
